A study of Mus musculus with 9 samples.

Results

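Mitochondrial ribosomal protein genes were followed through 3 stages of male germ cell development in the mouse. Members were the protein-coding genes of the deposited count table whose symbol begins with Mrpl or Mrps and a digit, which gave 78 genes of 50493 features in all. All 78 had counts in each of the 9 libraries, and all 78 were among the 26030 features that passed the filter on low counts. The libraries came from wild-type (WT) testis: pachytene spermatocytes (PAC), which pair and recombine their chromosomes; round spermatids (RS), haploid cells made by the meiotic divisions; and elongating spermatids (ES), in which the nucleus compacts and the tail grows. Each cell type had 3 libraries of total RNA without ribosomal RNA, and the groups carried no treatment or allele. The submitters' design text calls the 3 libraries biological replicates, but the sources used here do not say whether they came from different animals, whether animals were pooled or how the cells were isolated, so the p-values measure only the spread between these libraries, which may be technical.

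The mitochondrial ribosome, or mitoribosome, sits in the mitochondrial matrix and translates the few messenger RNAs that mitochondrial DNA encodes, all for subunits of the respiratory chain and ATP synthase. Its ribosomal RNAs come from mitochondrial DNA, while its proteins are encoded in the nucleus, made in the cytosol and imported. Mrpl genes encode proteins of the large subunit, which forms peptide bonds, and Mrps genes those of the small subunit, which reads the messenger RNA. Some have counterparts in bacterial ribosomes and others were gained by mitochondria. Transcripts of mitochondrial DNA were not analysed here.

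The libraries held between 22910156 and 33801617 counts, so that 3 counts in a library correspond to 0.0819 to 0.162 CPM, a gene's counts scaled to a common library size. Levels below are CPM after TMM scaling, a correction for differences in library composition, and FPKM, which divides by transcript length as well, is used where genes are compared with each other. Marker lists were highest under the matching label for PAC and ES: 10 pachytene markers summed to 3739 to 4187 CPM in PAC, 2425 to 2472 in RS and 1628 to 1959 in ES, and 9 markers of elongating spermatids to 1909 to 2650, 14059 to 15964 and 36571 to 67376. Ybx3 (means of 1319, 1174 and 878 CPM in PAC, RS and ES) and Adam2 (1031, 667 and 378) held most of the pachytene sum. From RS to ES 4 pachytene markers were called higher (Hormad1, Piwil1, Tex101 and Id4) and 4 lower, and 2 had no call. All 10 were called lower in ES than in PAC. Of 8 round spermatid markers, 8 were called higher in RS than in PAC and 7 fell from RS to ES, for example Acrv1, an acrosome protein, with means of 166, 496 and 218 CPM in PAC, RS and ES. The other one, the kinase gene Tssk6, rose to 2701 CPM in ES from 626 in RS and set the sum of the list (578 to 731 CPM in PAC, 2238 to 2421 in RS and 3085 to 3830 in ES). Markers of other testis cells also differed between the cell types. Leydig cell markers (7 genes) summed to 88.5 to 122 CPM in PAC, 1.86 to 2.19 in RS and 18.4 to 24.3 in ES. Sertoli cell markers (11 genes) summed to 61.1 to 145, 53.0 to 59.0 and 407 to 486, and macrophage and blood markers (10 genes) to 6.14 to 7.78, 19.0 to 23.2 and 141 to 225. In ES the globin genes Hbb-bs and Hba-a1, with means of 85.3 and 48.9 CPM, held most of that last sum. Peritubular and vascular markers (8 genes) summed to 7.38 to 9.33, 14.7 to 25.3 and 21.8 to 25.6, and spermatogonial markers (8 genes) to 19.0 to 21.9, 29.4 to 32.9 and 26.7 to 35.1. Gfra1, with a mean of 24.8 CPM, held most of the spermatogonial sum in RS. Of those 8 markers 4 were called lower and 2 higher in RS than in PAC. Of the Sertoli markers at most 2 were at 0 in any library, of the Leydig, peritubular and spermatogonial markers at most 1, and of the macrophage markers 0. The part of other cells in the results below was not tested.

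Taken as a sum, the 78 members were at 3982, 3343 and 2822 CPM in PAC 1, 2 and 3, at 2453, 2533 and 2459 in RS 1, 2 and 3, and at 2273, 2065 and 1838 in ES 1, 2 and 3. With this scaling every PAC library was therefore above every RS library, and the lowest RS library was above the highest ES library. Other scalings could change this order. With TMM factors from protein-coding genes the members' median log2 fold change of RS against PAC moved from -0.885 to -0.494. With DESeq2's size factors that of ES against RS moved from -0.0454 to 0.101. The sums were 3382 ± 581 CPM in PAC, 2481 ± 44.4 in RS and 2059 ± 217 in ES (SD, n = 3). As a share of all counts in a library, which no scaling touches, the members took 0.358% ± 0.0565, 0.27% ± 0.00345 and 0.177% ± 0.0115 (SD, n = 3). In such bulk samples, fewer cells of a type and less RNA per cell cannot be told apart. The median member was at 26.8 CPM in PAC, 16.8 in RS and 15.3 in ES, and the 10 most abundant members held 41.8%, 48.2% and 47.4% of the sum.

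The members shared an order among the PAC libraries. PAC 1 was the highest PAC library for 64 of the 78 members and PAC 3 the lowest for 67. On the log2 scale the median member deviated from its PAC mean by 0.231 in PAC 1, 0.00524 in PAC 2 and -0.231 in PAC 3, while the median over all protein-coding genes deviated by 0.00606, -0.00801 and -0.0162. RS libraries lay close together, with a median coefficient of variation over members of 6.29% against 18.4% in PAC and 17.3% in ES. In ES the third library was the lowest for 46 members. The cytosolic ribosomal protein genes and the respiratory chain subunits spread in PAC too, with summed levels of 15541 to 24209 and 7606 to 11598 CPM. The summed Sertoli cell markers had the same order, at 145, 102 and 61.1 CPM in PAC 1, 2 and 3, while the Leydig cell markers, at 118, 88.5 and 122, did not; the part of other cells in this order was not tested.

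**Figure D1:**
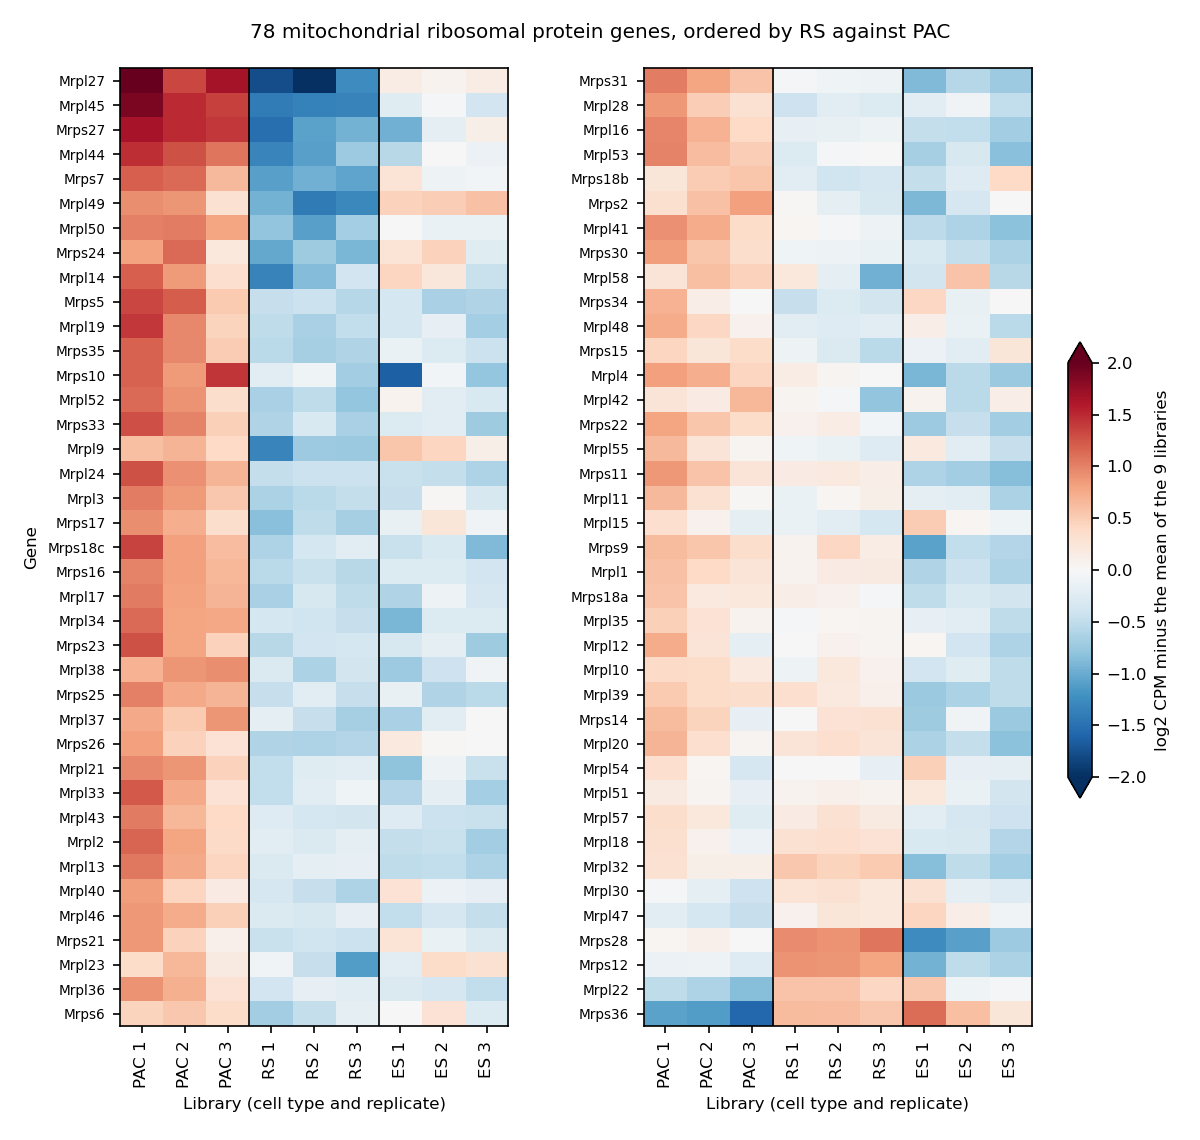
Colours give, for each of the 78 members (rows, in 2 columns, ordered by the log2 fold change of RS against PAC), log2 CPM in a library minus the mean of the 9 libraries, with libraries on the horizontal axis; the scale is limited to 2 in either direction. Most rows are red in PAC and blue in ES, and the last 4 rows on the right, Mrps28, Mrps12, Mrpl22 and Mrps36, are red in RS.

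From PAC to RS most mitoribosomal protein genes fell. Of the 78 members, 54 (69.2%) were called lower in RS and 6 (7.69%) higher (edgeR's quasi-likelihood fit, with Benjamini-Hochberg adjusted p below 0.05), and 18 passed in neither direction. Over all features tested the same test called 34.2% lower and 38.2% higher, and over the 14836 protein-coding genes tested 46.9% lower and 26.3% higher. The median log2 fold change of the members was -0.885, beside -0.464 for protein-coding genes and 0.113 for all features. The fall was called and at least 2-fold in 32 of the 78 members, beside 5118 of the 14836 protein-coding genes and 6749 of the 26030 features tested. Markers of Leydig and Sertoli cells were lower in RS than in PAC as well: 7 of 7 Leydig markers and 9 of 10 tested Sertoli markers were called lower, and Amhr2, the Sertoli marker with no call (40.0 and 47.7 CPM), held most of the RS sum of that list. All RS libraries were below all PAC libraries in 60 members and above them in 7, where 50% and 29.5% of protein-coding genes and 37.0% and 42.1% of all features did the same. The median of all features moved to 0.421 with upper-quartile factors and to 0.503 with TMM factors from protein-coding genes, and that of the members to -0.579 and -0.494. Measured from the median of all features, the members were at -0.998 with the scaling used and between -0.997 and -1.0 with the other scalings. A change of scaling shifts all features by about the same amount, so this difference cannot show whether the result depends on the scaling.

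Mrpl27, a large subunit protein close to the site where peptide bonds form (chromosome 11, 94653770 to 94661932, GRCm38.p6), had the steepest fall. It was at 9.24, 4.93 and 6.16 CPM in the PAC libraries, at 0.572, 0.328 and 0.818 in RS and at 2.16, 2.04 and 2.18 in ES. These ranges did not overlap, and ES lay between the others. The log2 fold change of RS against PAC was -3.56 (SE 0.35, adjusted p = 4.98e-06), and the PAC mean was 11.8 times the RS mean. Mrpl27's annotated span overlaps Eme1 on the other strand, and whether counting used strand is not stated in those sources; 25 members overlap another annotated gene in this way or on the same strand.

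Mrpl45 (chromosome 11, 97314923 to 97329920), which lies at the mouth of the exit tunnel and holds the ribosome to the inner membrane, fell by 2.95 on the log2 scale (SE 0.17, adjusted p = 1.71e-07). Its levels were 85.2, 65.1 and 59.7 CPM in PAC against 8.83, 9.09 and 9.17 in RS, and 19.7, 22.5 and 17.8 in ES. Even the lowest PAC library was well above every spermatid library. Mrpl44, a large subunit protein with a ribonuclease III fold (chromosome 1, 79776018 to 79781445), was at 18.1, 15.8 and 13.7 CPM in PAC and at 2.62, 3.09 and 3.97 in RS, a log2 change of -2.29 (SE 0.22, adjusted p = 4.75e-06). Mrpl24, a large subunit protein near the exit tunnel that was named after its values were seen, as an abundant member that fell, had 276, 217 and 184 CPM in PAC, 82.5, 85.3 and 85.6 in RS and 84.5, 82.1 and 74.4 in ES (RS against PAC -1.42, adjusted p = 1.06e-05).

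Among small subunit genes, Mrps27 and Mrps7 fell most from PAC to RS. Mrps27, a pentatricopeptide repeat protein (chromosome 13, 99344767 to 99415562), was at 8.65, 7.75 and 7.28 CPM in PAC and at 0.964, 1.31 and 1.43 in RS (log2 change -2.67, SE 0.28, adjusted p = 8.74e-06). Mrps7, in the head of the small subunit (chromosome 11, 115604140 to 115608036), was at 18.0, 17.2 and 12.3 CPM in PAC, 3.71, 4.01 and 3.80 in RS and 9.51, 7.33 and 7.57 in ES (RS against PAC -2.04, adjusted p = 4.76e-06). In both genes the RS libraries lay below all the others except that for Mrps27 the lowest ES library, at 1.41 CPM, was below the highest RS library. Mrps5 (chromosome 2, 127587426 to 127603986), whose bacterial counterpart acts in accuracy of decoding, fell to 8.53, 8.77 and 7.89 CPM in RS from 29.6, 27.0 and 16.9 in PAC and was at 9.19, 7.46 and 7.76 in ES (RS against PAC -1.55, adjusted p = 5.21e-05).

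**Figure D2:**
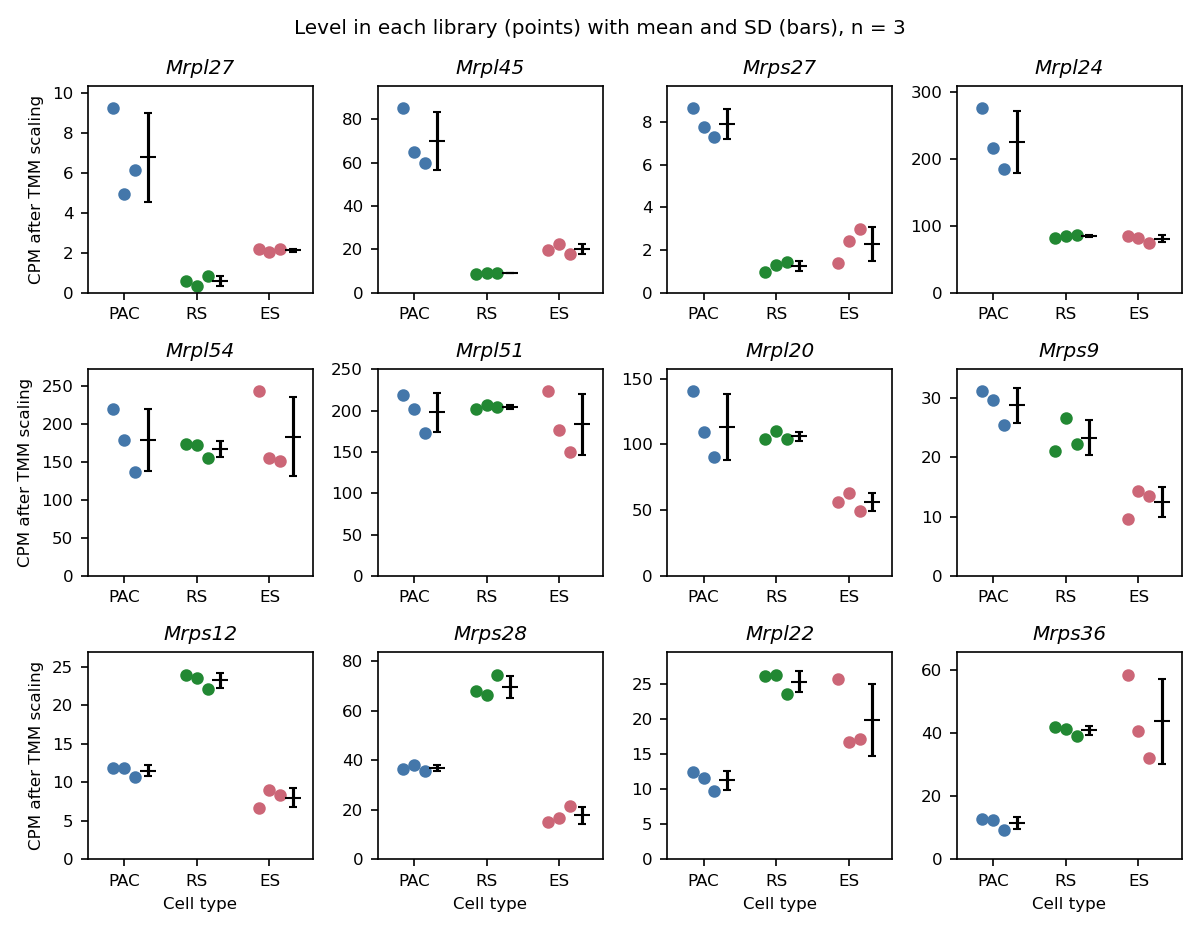
Points give CPM after TMM scaling in each library of PAC, RS and ES for 12 members, with the mean and SD of 3 libraries as a bar beside them; each vertical axis starts at 0 and has its own range. The top row shows members that fell from PAC to RS, such as Mrpl45 from 70.0 to 9.03 CPM; the bottom row shows 4 called higher in RS than in PAC by counts; the middle row shows Mrpl54 and Mrpl51, with no call in any comparison, and Mrpl20 and Mrps9, which fell from RS to ES.

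The members that rose from PAC to RS numbered 6. Mrps36 (chromosome 13, 100735940 to 100744659), with the steepest rise, carries a ribosomal name but is known as a subunit of the oxoglutarate dehydrogenase complex of the citric acid cycle and is absent from structures of the mitoribosome. Its levels were 12.8, 12.4 and 9.08 CPM in PAC, 41.9, 41.3 and 39.1 in RS and 58.5, 40.6 and 31.99 in ES. All spermatid libraries were above all PAC libraries. The log2 fold change was 1.84 for RS against PAC (SE 0.22, adjusted p = 2.08e-05) and 1.93 for ES against PAC (SE 0.22, adjusted p = 1.57e-05), and 0.10 for ES against RS (adjusted p = 0.725). RefSeq names 3 pseudogenes of Mrps36 that are not rows of the count table. It also names pseudogenes of Mrpl23, Mrpl27 and Mrpl48, which are not rows either. How reads that match any of these pseudogenes were counted was not examined. Without Mrps36, 5 members were called higher and 54 lower in RS, with a median of -0.891.

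Mrpl22 (chromosome 11, 58170043 to 58179580), a large subunit protein that lines the exit tunnel, had 12.4, 11.5 and 9.73 CPM in PAC, 26.1, 26.3 and 23.5 in RS and 25.7, 16.6 and 17.1 in ES. It rose by 1.17 on the log2 scale from PAC to RS (SE 0.19, adjusted p = 0.000201). ES was called higher than PAC from the counts (0.82, adjusted p = 0.00257), but the deposited FPKM went the other way, with means of 10.9 in PAC, 18.9 in RS and 8.68 in ES (log2 change -0.32 for ES against PAC, adjusted p = 0.0833 in limma with a pseudocount of 0.1). What lengths the FPKM were divided by is not stated.

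Mrps12 (chromosome 7, 28739641 to 28741821), a protein of the decoding centre, and Mrps28 (chromosome 3, 8802146 to 8923857) were the members called highest in RS, against both other cell types. Mrps12 was at 11.9, 11.9 and 10.7 CPM in PAC, 24.0, 23.6 and 22.2 in RS and 6.65, 9.02 and 8.28 in ES. It rose by 1.01 from PAC to RS (SE 0.16, adjusted p = 0.000136) and fell by 1.54 from RS to ES (adjusted p = 2.16e-05), and its FPKM means of 17.2, 36.0 and 10.03 had the same order. Mrps28 was at 36.6, 38.1 and 35.8 CPM in PAC, 68.0, 66.2 and 74.7 in RS and 14.9, 16.7 and 21.3 in ES. By counts it was called higher in RS than in PAC (0.92, SE 0.15, adjusted p = 0.000207), but its FPKM were 36.9 ± 5.81 in PAC, 34.7 ± 2.04 in RS and 15.2 ± 1.22 in ES (SD, n = 3), with no call for RS against PAC (-0.08, adjusted p = 0.654). The fall of Mrps28 from RS to ES was called on both scales. Of the 75 members with both measures above a low floor, Mrps28 was the single one whose ratio of FPKM to CPM moved by more than 0.5 on the log2 scale between PAC and RS, and 4.42% of 11049 protein-coding genes did so.

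Mrpl47 and Mrpl30 rose by less. Mrpl47, at the exit tunnel of the large subunit (chromosome 3, 32727497 to 32736755), went from 74.3, 68.2 and 62.8 CPM in PAC to 92.4, 103 and 101 in RS and was at 116, 94.9 and 83.1 in ES (RS against PAC 0.53, SE 0.15, adjusted p = 0.00692). Mrpl30, a large subunit protein named after its values were seen, as the last of the 6, went from 73.6, 66.7 and 56.7 CPM to 91.4, 93.2 and 87.2 (0.46, adjusted p = 0.0259). That call was lost without PAC 2 (0.48, adjusted p = 0.0559), PAC 3 (0.37, adjusted p = 0.0808), RS 1 (0.46, adjusted p = 0.0628) or RS 2 (0.45, adjusted p = 0.0707), and with DESeq2 (0.41, adjusted p = 0.061). Of the 60 calls of RS against PAC, 45 held under every alternative tried, of which 41 were lower and 4 higher.

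Stretches of DNA just before the start of members that rose, of members that fell and of a pair with shared upstream sequence show what was searched for binding motifs. They are from RefSeq's table of promoter windows for GRCm38.p6, run 5′ to 3′ on the strand of the gene, end at the base before its start and hold no base of an annotated gene. Capitals mark a match on either strand to the core letters of ETS factors (CCGGAAG) or of nuclear respiratory factor 1, NRF1 (GCATGCGC), factors known for driving nuclear genes of mitochondrial proteins. The first 2 genes were higher in RS than in PAC. Mrpl17 and Mrpl3, large subunit genes shown for the clarity of their matches, were lower. Mrpl32 is shown for 4 NRF1 matches, of which 2 overlap on opposite strands. The last stretch lies between Mrpl46 and Mrps11.
Mrps36 (minus strand, chr13:100744660-100744909): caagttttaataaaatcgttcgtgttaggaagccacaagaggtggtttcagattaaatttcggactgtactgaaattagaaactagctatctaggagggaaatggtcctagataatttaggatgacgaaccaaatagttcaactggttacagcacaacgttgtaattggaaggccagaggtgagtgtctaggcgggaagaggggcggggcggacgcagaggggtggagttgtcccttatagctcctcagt
Mrps12 (minus strand, chr7:28741822-28741956): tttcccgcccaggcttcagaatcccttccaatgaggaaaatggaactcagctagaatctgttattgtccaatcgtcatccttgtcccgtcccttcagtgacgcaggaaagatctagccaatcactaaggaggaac
Mrpl17 (minus strand, chr7:105811088-105811337): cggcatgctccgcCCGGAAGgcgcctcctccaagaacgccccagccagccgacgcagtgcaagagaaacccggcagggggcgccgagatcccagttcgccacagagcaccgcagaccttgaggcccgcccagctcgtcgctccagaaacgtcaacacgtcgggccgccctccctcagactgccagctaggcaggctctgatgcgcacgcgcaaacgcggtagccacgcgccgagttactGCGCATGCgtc
Mrpl3 (plus strand, chr9:105053018-105053267): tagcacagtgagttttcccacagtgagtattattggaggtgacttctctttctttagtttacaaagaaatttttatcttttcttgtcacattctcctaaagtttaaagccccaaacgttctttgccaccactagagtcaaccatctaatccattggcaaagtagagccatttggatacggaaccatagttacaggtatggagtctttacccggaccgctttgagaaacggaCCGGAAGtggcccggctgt
Mrpl32 (minus strand, chr13:14613038-14613241): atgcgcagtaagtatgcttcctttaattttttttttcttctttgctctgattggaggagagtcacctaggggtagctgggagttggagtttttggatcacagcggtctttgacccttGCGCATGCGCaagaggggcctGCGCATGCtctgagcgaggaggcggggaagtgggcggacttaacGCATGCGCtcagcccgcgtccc
Mrpl46 (minus strand, chr7:78783090-78783130): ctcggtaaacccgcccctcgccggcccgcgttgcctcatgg

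The stretches printed for Mrps36, Mrps12 and Mrpl46 hold neither core, although the whole window of Mrps12 has an ETS core just after its start. Mrpl17 has an ETS core 237 bases before its start and an NRF1 core 11 bases before it, and Mrpl3 an ETS core 19 bases before its start. Mrpl17 was at 22.1, 18.8 and 17.2 CPM in PAC and at 6.90, 8.60 and 7.59 in RS (log2 change -1.33, adjusted p = 5.72e-05). Mrpl3 was at 24.3, 21.6 and 17.4 CPM in PAC and at 7.77, 8.27 and 8.64 in RS (-1.36, adjusted p = 5.11e-05). Both were below their PAC range in every RS library.

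Over whole windows, from 250 bases before a start to 50 after it, 69 of the 78 members had 75 windows in the table. The ETS core was in 26 of the 75 (34.7%), against 11.6% of 21263 windows of protein-coding genes and 8.86% of all 32851 windows. The NRF1 core was in 8 (10.7%, against 3.52% of coding windows), and the longer NRF1 site, that core with GC added before it, which reads the same on both strands, in 3 (4.0%, against 1.33%). The letters AAGATGG, bound by YY1, were in 13 (17.3%, against 6.24%). Other elements came closer to their share among coding windows: the SP1 box GGGCGG was in 52.0% against 46.2%, CCAAT in 40.0% against 38.2%, the E-box CACGTG in 9.33% against 7.84%, the cyclic AMP element TGACGTCA in 2.67% against 2.23%, and TATAAA in 6.67% against 12.6%. Both strands were searched, windows of the same gene can overlap, and the median GC content was 58.7% for member windows and 56.3% for coding windows. The ETS core was in 19 of 54 windows of members called lower in RS (35.2%) and in 7 of 21 windows of the other members (33.3%), which include 2 of the 5 windows of members called higher. The NRF1 core was in 4 of 54 windows of lower members (7.41%) and in 4 of 21 of the others (19.0%), and the YY1 letters in 8 of 54 (14.8%) and 5 of 21 (23.8%). The stretches printed above were picked for display, not as a contrast between members that rose and members that fell.

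Many members start back to back with another gene. A head-to-head neighbour, with starts at most 1000 bases apart on opposite strands, was found for 27 members, and 24 of these neighbours were tested. From PAC to RS, 12 members fell together with their neighbour, 6 fell while the neighbour had no call, and 0 fell while the neighbour rose. Of the 24 neighbours 14 (58.3%) were called lower, beside 46.9% of protein-coding genes. Only 1 of the 24 was called higher, beside 26.3% of protein-coding genes, so a fall beside a rising neighbour could hardly occur. The 12 are 11 pairs of genes, since Mrpl46 and Mrps11 are each other's neighbour. Mrpl43, Mrpl46, Mrps11, Helq and Twnk, described here, Psma2, Mrpl17 and Mrpl3 fall outside the naming rule and were chosen after their values were seen. Mrpl43 (52.5 ± 11.9 CPM in PAC, 25.3 ± 1.01 in RS, SD, n = 3) starts 116 bases from Twnk, the helicase that unwinds mitochondrial DNA for replication, which fell by 2.30 on the log2 scale from PAC to RS (adjusted p = 1.11e-05). Mrps18c starts 159 bases from Helq, a DNA repair helicase, which fell by 2.64 (adjusted p = 1.39e-05). Mrps12 starts 147 bases from Sars2, the mitochondrial seryl-tRNA synthetase: both were higher in RS than in PAC and in ES, with Sars2 at 1.13 ± 0.253, 2.10 ± 0.130 and 1.02 ± 0.159 CPM (SD, n = 3; RS against PAC 0.90, adjusted p = 0.0133; ES against RS -1.03, adjusted p = 0.0125). Mrpl46 and Mrps11, with starts 42 bases apart, are both members. Mrpl46 had 33.1, 30.7 and 25.3 CPM in PAC, 14.9, 14.7 and 16.2 in RS and 12.9, 14.5 and 13.1 in ES, while Mrps11 had 114, 92.7 and 74.7, then 69.7, 71.2 and 68.8, then 40.8, 38.4 and 34.6. Mrpl46 thus had its called fall from PAC to RS (-0.96, adjusted p = 0.000143; ES against RS -0.18, adjusted p = 0.352), and Mrps11 its larger one from RS to ES (-0.88, adjusted p = 0.000883). The smaller call of Mrps11 from PAC to RS (-0.42, adjusted p = 0.0293) was lost under 12 alternatives, among them the fits without PAC 1 (-0.26, adjusted p = 0.116), PAC 2 (-0.43, adjusted p = 0.0626), RS 1 (-0.42, adjusted p = 0.0822), RS 2 (-0.43, adjusted p = 0.0772) and RS 3 (-0.41, adjusted p = 0.0851).

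From RS to ES the members split. Of the 78, 12 (15.4%) were called higher in ES and 18 (23.1%) lower, with a median of -0.0454; over all features tested 24.5% were called higher and 22.1% lower, and over protein-coding genes 31.8% and 21.7%, with a median of 0.182 for the latter. All ES libraries were above all RS libraries in 18 members and below them in 25, beside 30.2% and 29.3% of all features and 37.6% and 28.0% of protein-coding genes. The split between directions depended on the scaling. With DESeq2's size factors 17 members were higher and 13 lower, with library totals alone 5 and 29, and with the deposited FPKM (pseudocount 0.1, limma) 5 and 32, and the median went to 0.101, -0.371 and -0.347. The median of all features moved from 0.048 to 0.189, -0.28 and -0.282 in the same fits. Without RS 1, 7 members were called higher. Of the 30 calls, 18 held under every alternative, 5 of them higher and 13 lower.

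All 12 members that rose from RS to ES were also called lower in RS than in PAC, and the 5 whose rise held under every alternative were Mrpl27, Mrpl45, Mrpl49, Mrpl9 and Mrps7. Mrpl49 (chromosome 19, 6053630 to 6057755) had 5.57, 5.37 and 3.60 CPM in PAC, 1.51, 1.09 and 1.20 in RS and 4.0, 4.09 and 4.35 in ES. It rose by 1.71 on the log2 scale from RS to ES (adjusted p = 0.000195), and ES against PAC gave no call (-0.23, adjusted p = 0.411). Mrpl27 rose by 1.89 (SE 0.35, adjusted p = 0.00113), Mrpl45 by 1.15 (SE 0.17, adjusted p = 0.000197) and Mrps7 by 1.08 (adjusted p = 0.000971), and all 3 were called lower in ES than in PAC. Mrpl9 (chromosome 3, 94443154 to 94448708), whose bacterial counterpart reaches out from the base of the large subunit's stalk, was at 12.9, 13.5 and 11.2 CPM in PAC, 3.40, 5.13 and 5.08 in RS and 12.5, 11.4 and 9.23 in ES (ES against RS 1.28, SE 0.21, adjusted p = 0.000422; ES against PAC -0.18, adjusted p = 0.444). These comparisons share the RS libraries, so a low RS value enters both. The rise of Mrpl44 (0.81, adjusted p = 0.0108) was lost without RS 1 (0.67, adjusted p = 0.0604), with library totals and with FPKM. That of Mrpl50, a large subunit protein with low counts (0.844, 0.683 and 0.905 CPM in RS, 1.46, 1.33 and 1.32 in ES; 0.76, adjusted p = 0.0351), was lost without PAC 2 (0.74, adjusted p = 0.0569), without any 1 of the RS libraries (0.63 to 0.84, adjusted p from 0.0569 to 0.143) and without any 1 of the ES libraries (0.71 to 0.78, adjusted p from 0.0622 to 0.0661). The rise of Mrps27 (0.88, SE 0.29, adjusted p = 0.0265) was lost without RS 1 (0.71, adjusted p = 0.11), RS 2 (0.90, adjusted p = 0.067), ES 2 (0.83, adjusted p = 0.0716) or ES 3 (0.62, adjusted p = 0.117).

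Among the 18 members that fell from RS to ES, Mrps28 and Mrps12 had the largest changes (-1.98, SE 0.15, adjusted p = 4.58e-06, and -1.54). Mrpl32, a large subunit protein whose maturation by the m-AAA protease of the inner membrane gates ribosome assembly (chromosome 13, 14610301 to 14613037), had 27.0, 23.7 and 23.9 CPM in PAC, 31.8, 30.0 and 31.4 in RS and 12.1, 15.5 and 13.6 in ES. Its fall of 1.17 (SE 0.14, adjusted p = 6.34e-05) followed a difference of 0.32 between RS and PAC that did not pass (adjusted p = 0.0569), although no RS library was as low as any PAC library. Mrpl32's head-to-head neighbour Psma2, a proteasome subunit, instead fell from PAC to RS (-1.75, adjusted p = 7.25e-06) and rose from RS to ES (0.51, adjusted p = 0.0327). Mrpl20 (chromosome 4, 155802878 to 155808831), an early-binding protein of the large subunit core, was at 140, 110 and 90.4 CPM in PAC, 104, 110 and 104 in RS and 56.2, 62.8 and 49.5 in ES (RS against PAC -0.10, adjusted p = 0.606; ES against RS -0.92, SE 0.17, adjusted p = 0.00093). Mrps9, in the head of the small subunit (chromosome 1, 42851233 to 42905683), was at 31.1, 29.6 and 25.5 CPM in PAC, 21.0, 26.6 and 22.2 in RS and 9.51, 14.3 and 13.4 in ES (ES against RS -0.91, SE 0.18, adjusted p = 0.00174). For Mrpl20 and Mrps9, PAC and RS overlapped while every ES library was below every other library.

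Between the ends of the series, ES against PAC, 60 members (76.9%) were called lower and 3 (3.85%) higher, with a median of -0.983. Over all features tested 33.7% were lower and 30.6% higher, and over protein-coding genes 42.6% and 25.2%, with a median of -0.385. All ES libraries were below all PAC libraries in 56 members and above them in 3, beside 35.5% and 32% of all features and 44.1% and 26.6% of protein-coding genes. Called and at least 2-fold lower were 38 of the 78 members, beside 4187 of 14836 protein-coding genes and 6269 of 26030 features. The 3 called higher were Mrps36, Mrpl22 and Mrpl47, and of these Mrps36 alone was called under every alternative, with log2 changes from 1.57 to 2.24; Mrpl47 (0.52, adjusted p = 0.00835) lost its call with library totals and with FPKM. Of the 60 lower calls, 47 held under every alternative. Mrps10, a small subunit head protein (chromosome 17, 47368887 to 47381418), had the steepest fall, from 4.95, 3.95 and 5.84 CPM in PAC to 0.703, 2.09 and 1.28 in ES (-1.84, SE 0.35, adjusted p = 0.000703), with 1.87, 2.05 and 1.34 in RS. Without ES 2 the change was -2.29.

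A joint test of the 3 cell types called 71 of the 78 members, beside 84.9% of protein-coding genes and 82.0% of all features. By the pairwise calls 45 members were highest in PAC against both spermatid types (33.3% of protein-coding genes tested, 25.4% of all features), 2 were highest in RS (10.7% and 13.4%) and 0 were highest in ES (14.7% and 13.3%). Lowest in RS were 12 members (20.1% and 12.8%), lowest in ES 18 (12.1% and 9.42%) and lowest in PAC 3 (15.9% and 23.4%). The commonest order, in 31 members, was a fall from PAC to RS with no call from RS to ES and ES still below PAC. In 10 members the fall came between RS and ES instead, with no call from PAC to RS: Mrpl1, Mrpl10, Mrpl18, Mrpl20, Mrpl32, Mrpl39, Mrpl57, Mrps14, Mrps18a and Mrps9, all named after their values were seen except where described above. In 8 members RS was lowest and ES intermediate, and in 6 each step was a fall.

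Further members show these courses, named after their values were seen. Mrpl52, of the large subunit, fell once: it was at 55.1, 47.1 and 32.3 CPM in PAC, 16.1, 17.8 and 14.7 in RS and 26.5, 21.7 and 20.5 in ES (RS against PAC -1.47, adjusted p = 5.47e-05; ES against RS 0.50, adjusted p = 0.0577). Every ES library of Mrpl52 was above every RS library, and its rise from RS to ES passed the threshold under 7 alternatives, among them DESeq2's test. Mrpl19, also of the large subunit, was at 15.2, 11.1 and 7.78 CPM in PAC, 4.01, 3.63 and 4.06 in RS and 4.49, 5.11 and 3.55 in ES (RS against PAC -1.54, adjusted p = 0.000199). For Mrpl16, which binds transfer RNA near the centre of the large subunit, PAC was at 53.3, 44.1 and 35.8 CPM, RS at 24.2, 24.5 and 25.3 and ES at 19.6, 19.3 and 16.8 (RS against PAC -0.85, adjusted p = 0.000601; ES against RS -0.41, adjusted p = 0.0567). In Mrpl16 the 3 cell types did not overlap. The second step, which missed the threshold, passed it under 9 alternatives, among them the scaling by library totals (-0.74).

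Mrpl1 and Mrpl39, abundant large subunit genes, fell at the second step. Mrpl1 was at 182, 160 and 146 CPM in PAC, 127, 137 and 138 in RS and 80.2, 90.3 and 78.9 in ES (RS against PAC -0.28, adjusted p = 0.0669; ES against RS -0.69, adjusted p = 0.00114). Mrpl39 was at 134, 122 and 120 CPM in PAC, 119, 107 and 101 in RS and 55.9, 60.8 and 66.1 in ES (RS against PAC -0.20, adjusted p = 0.163; ES against RS -0.84, adjusted p = 0.000283). In both genes the RS libraries lay just below the PAC range and ES well below both. Mrps31, of the small subunit, fell at each step, from 100, 84.8 and 72.8 CPM in PAC to 47.8, 46.5 and 46.0 in RS and 26.8, 33.3 and 29.8 in ES (RS against PAC -0.88, adjusted p = 0.000266; ES against RS -0.64, adjusted p = 0.00421).

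No call in any comparison was made for 5 members, and for 12.1% of protein-coding genes and 14.4% of all features: Mrpl15, Mrpl42, Mrpl51, Mrpl54 and Mrpl58. Mrpl54 (chromosome 10, 81264722 to 81266926) had the highest FPKM of all members, 314 ± 69.2 in PAC, 306 ± 19.9 in RS and 262 ± 41.9 in ES (SD, n = 3). In CPM it was at 220, 179 and 137 in PAC, 174, 173 and 155 in RS and 243, 154 and 152 in ES, with overlap between all 3. Mrpl51 (chromosome 6, 125192200 to 125194392), of the large subunit, was at 219, 202 and 173 CPM, then 202, 207 and 204, then 223, 177 and 150. Mrpl58 (chromosome 11, 115403724 to 115412674), a peptidyl-tRNA hydrolase built into the large subunit and known for freeing stalled ribosomes, was at 0.746, 0.950 and 0.865 CPM in PAC, 0.723, 0.546 and 0.321 in RS and 0.486, 0.933 and 0.426 in ES. At these low counts the difference of -0.68 between RS and PAC had an SE of 0.44 (adjusted p = 0.175).

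On the per-length scale the members covered a wide range. Mean FPKM over the 9 libraries was highest for Mrpl54, at 294, and other high members were Mrpl20 (176 in PAC, 171 in RS, 72.5 in ES) and Mrpl51 (168, 186 and 132). The lowest were Mrpl50 (1.40, 0.421 and 0.565), Mrpl58 (1.05, 0.692 and 0.645) and Mrps25, a small subunit protein (2.07, 0.944 and 0.722). Median FPKM over the members went from 26.7 in PAC to 17.7 in RS and 11.3 in ES. FPKM were not TMM-scaled, and in CPM the median member was at 26.8, 16.8 and 15.3. Over all features the median of ES against RS was -0.282 with FPKM (pseudocount 0.1) and 0.048 with TMM. Of these 3 high members 0 were called between PAC and RS. Of the low members Mrpl50 (-1.79, adjusted p = 8.32e-05) and Mrps25 (-1.19, adjusted p = 0.000178) fell, and Mrpl58 had no call (-0.68, adjusted p = 0.175). Abundant members could fall too, such as Mrpl24 (-1.42, adjusted p = 1.06e-05).

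The 2 subunits had similar medians. Of 51 genes for large subunit proteins, counting Mrps18a and Mrps30, which sit in the large subunit despite their names, 32 fell and 3 rose from PAC to RS (median -0.849), and of 27 genes for small subunit proteins 22 fell and 3 rose (median -0.931). The 27 follow gene symbols and so include Mrps36; without it 22 of 26 fell and 2 rose (median -1.04). From RS to ES the medians were -0.0722 and 0.0991, and for ES against PAC -0.972 and -1.06. Genes with a bacterial counterpart (45) had a median of -0.891 from PAC to RS, with 30 lower and 4 higher, and mitochondria-specific genes (33) had -0.88, with 24 lower and 2 higher, or 24 and 1 of 32 without Mrps36 (median -0.919). No test was made between these classes.

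**Figure D3:**
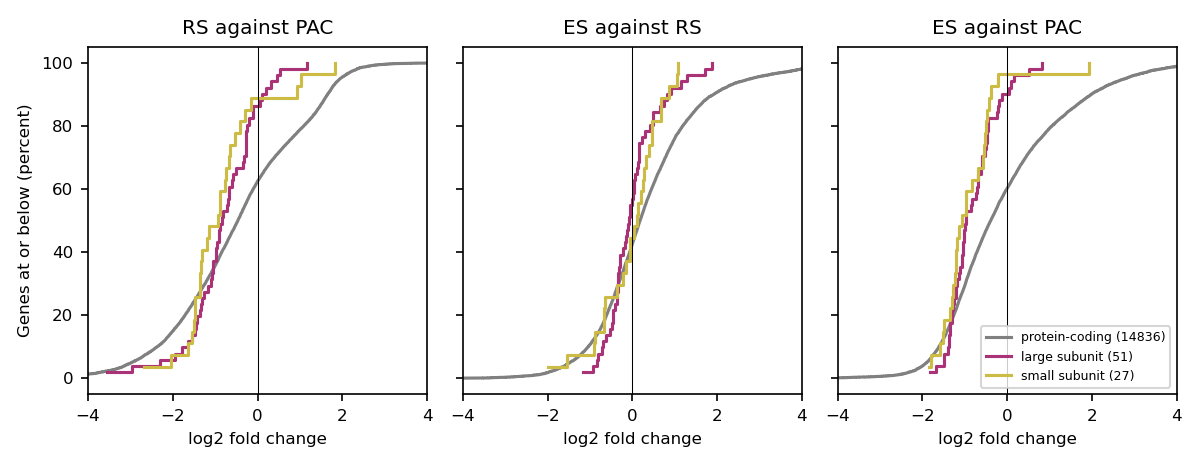
Lines give the percent of genes (vertical axis) at or below a log2 fold change (horizontal axis, limited to 4 in either direction) for 14836 protein-coding genes, 51 large subunit genes and 27 small subunit genes, in the 3 comparisons. The lines of both subunits lie close together, and in RS against PAC and ES against PAC they reach high percentages before 0, with medians of -0.849 and -0.931, and of -0.972 and -1.06.

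The Mrps18 members, of which there are 3, descend from the same bacterial protein and differed in their course. Mrps18c (chromosome 5, 100798759 to 100804467) and Mrps18b (chromosome 17, 35910380 to 35916440) are small subunit proteins, and Mrps18a (chromosome 17, 46111004 to 46128908) belongs to the large subunit. Mrps18c was at 55.9, 38.6 and 33.5 CPM in PAC, 14.2, 17.2 and 18.8 in RS and 16.1, 17.7 and 11.8 in ES, with a fall from PAC to RS (-1.35, SE 0.22, adjusted p = 0.000213) and no call after it (-0.14, adjusted p = 0.632). Mrps18b was at 16.2, 19.6 and 20.1, then 11.7, 10.4 and 10.8, then 9.84, 11.5 and 18.0 CPM. Its call from PAC to RS (-0.76, adjusted p = 0.00736) was lost with upper-quartile factors and with TMM factors from protein-coding genes. Mrps18a was at 26.1, 20.2 and 20.4, then 19.2, 18.7 and 17.3, then 12.4, 14.3 and 13.6 CPM. It had no call from PAC to RS (-0.28, adjusted p = 0.119) and was lower in ES than in PAC (-0.73, adjusted p = 0.00144). Its call of ES against RS (-0.45, adjusted p = 0.0318) was lost without any 1 of the RS libraries (-0.50 to -0.43, adjusted p from 0.0544 to 0.0954), without ES 1 (-0.40, adjusted p = 0.0684) and without ES 3 (-0.47, adjusted p = 0.0586). Per length, Mrps18c was the most abundant of the 3 in every cell type, with mean FPKM of 88.8, 36.4 and 26.3, beside 19.2, 12.3 and 12.5 for Mrps18b and 26.8, 23.2 and 13.6 for Mrps18a. Reads shared between the 3 were not examined here.

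Other large subunit members are known for further roles. Mrpl12 (chromosome 11, 120484637 to 120488754), a protein of the stalk that also binds the mitochondrial RNA polymerase, was at 85.2, 61.4 and 44.5 CPM in PAC, 51.4, 54.4 and 52.9 in RS and 52.6, 39.4 and 33.5 in ES. Libraries overlapped, and the call for ES against PAC (-0.61, SE 0.23, adjusted p = 0.0343) was lost under 10 alternatives, among them without PAC 1 (-0.36, adjusted p = 0.141), PAC 2 (-0.65, adjusted p = 0.0547), ES 2 (-0.57, adjusted p = 0.0971) or ES 3 (-0.48, adjusted p = 0.107). Mrps30 (chromosome 13, 118380110 to 118387252), once described in programmed cell death, was at 92.8, 76.8 and 66.5 CPM in PAC, 49.1, 48.7 and 47.5 in RS and 42.4, 37.7 and 33.6 in ES, with no overlap between the 3 and calls for RS against PAC (-0.70, adjusted p = 0.00147) and ES against PAC (-1.05, adjusted p = 8.95e-05). The first of these calls was lost with TMM factors from protein-coding genes.

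Other genes of mitochondrial translation fell from PAC to RS as well. To set beside the counts that follow, 46.9% of protein-coding genes were called lower and 26.3% higher from PAC to RS. Over all features these shares were 34.2% and 38.2%. From RS to ES 21.7% of protein-coding genes were called lower and 31.8% higher, and 22.1% and 24.5% of all features. Of 5 mitoribosomal proteins with other symbols, 4 fell and 0 rose. Ptcd3, a pentatricopeptide repeat protein of the small subunit, went from 84.0 ± 11.02 CPM in PAC to 36.5 ± 3.18 in RS and 43.0 ± 4.88 in ES (SD, n = 3; RS against PAC -1.20, adjusted p = 2.64e-05). Aurkaip1, also of the small subunit, went from 110 ± 25.9 to 51.9 ± 2.39 and 49.4 ± 3.35 (-1.08, adjusted p = 0.000138). Gadd45gip1, of the large subunit, went from 22.6 ± 4.45 to 12.2 ± 1.27 CPM in RS (-0.88, adjusted p = 0.001) and was at 16.8 ± 1.86 in ES. Dap3, the GTP-binding protein of the small subunit, was at 226 ± 22.0, 187 ± 1.08 and 182 ± 22.1 and had no call from PAC to RS (-0.27, adjusted p = 0.0817).

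Of 17 translation factors tested, 15 (88.2%) fell and 1 rose from PAC to RS (median -1.56), and 3 (17.6%) rose and 1 fell from RS to ES. Pdf, the deformylase that takes the formyl group off the first methionine, was at 2.08 ± 0.271 CPM in PAC, 0.284 ± 0.116 in RS and 2.46 ± 0.464 in ES, a fall of 2.84 and a rise of 3.09 on the log2 scale (adjusted p = 2.69e-05 and 4.11e-05). Mtrf1l, a release factor, was at 0.555 ± 0.122 CPM in PAC, 0.0596 ± 0.0603 in RS, a mean under the level of 3 counts a library, and 0.747 ± 0.148 in ES. Mrrf, which recycles ribosomes after termination, was the one that rose from PAC to RS, from 38.5 ± 1.75 to 52.1 ± 5.89 CPM (0.44, adjusted p = 0.0155), a call that was lost without RS 1 (0.36, adjusted p = 0.0734). Slirp, a partner of Lrpprc in keeping mitochondrial messenger RNAs stable, was at 56.7 ± 14.1 CPM in PAC, 56.2 ± 2.72 in RS and 29.7 ± 7.81 in ES and fell from RS to ES (-0.92, adjusted p = 0.00449).

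Of 25 genes for assembly of the mitoribosome and modification of its RNA, 18 (72.0%) fell and 2 rose from PAC to RS (median -1.69). From RS to ES 12 (48.0%) rose and 2 fell (median 0.652). Mtg2, a GTPase of large subunit assembly, went from 10.96 ± 1.91 CPM in PAC to 0.525 ± 0.103 in RS and 2.15 ± 0.203 in ES (RS against PAC -4.37, adjusted p = 1.46e-07; ES against RS 2.02, adjusted p = 7.79e-05). Ddx28, a helicase of large subunit assembly, went from 31.6 ± 7.69 to 2.66 ± 0.389 and 6.06 ± 0.889 (-3.56, adjusted p = 3.03e-07). Tfb1m, which dimethylates the small subunit's ribosomal RNA, went the other way, from 36.7 ± 2.75 CPM in PAC to 60.7 ± 0.775 in RS, and back to 35.6 ± 2.67 in ES (0.72, adjusted p = 0.000333, and -0.77, adjusted p = 0.00047). Nsun4, a methyltransferase of the same RNA that also acts in assembly, was at 8.80, 14.8 and 22.1 CPM in PAC, 24.0, 29.7 and 40.6 in RS and 97.9, 213 and 282 in ES, and was called higher in ES than in RS (2.65, adjusted p = 0.000962). Its call of RS against PAC (1.05, adjusted p = 0.0478) was lost without PAC 1 (0.77, adjusted p = 0.122), PAC 2 (1.03, adjusted p = 0.105), RS 2 (1.10, adjusted p = 0.0776), RS 3 (0.83, adjusted p = 0.144) or ES 2 (1.05, adjusted p = 0.0637).

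Of 20 genes for mitochondrial aminoacyl-tRNA synthetases and the amidotransferase, 7 rose and 4 fell from RS to ES. From PAC to RS 13 (65.0%) fell and 3 rose (median -1.32). Hars2, for histidine, went from 13.8 ± 3.62 CPM to 1.62 ± 0.377 and then 4.94 ± 1.45 in ES (-3.08, adjusted p = 4.48e-06; ES against RS 1.60, adjusted p = 0.000985), and Pars2, for proline, from 1.57 ± 0.260 to 0.127 ± 0.0729 (-3.60, adjusted p = 4.34e-05). Sars2, described above, and Wars2, for tryptophan, were among the 3 that rose, Wars2 from 1.45 ± 0.303 to 3.58 ± 0.316 CPM (1.30, adjusted p = 0.00259). Of 16 genes for mitochondrial DNA maintenance, transcription and RNA processing, 5 rose and 5 fell from RS to ES. From PAC to RS 11 (68.8%) fell and 2 rose (median -1.33). Mgme1, a nuclease of mitochondrial DNA replication, fell from 3.19 ± 0.583 to 0.375 ± 0.0216 CPM (-3.07, adjusted p = 7.61e-06). Hsd17b10 and Trmt10c, which work together in cutting mitochondrial transfer RNAs from their precursors, moved in opposite directions from PAC to RS, Hsd17b10 from 2.02 ± 0.737 to 0.397 ± 0.0863 CPM (-2.34, adjusted p = 8.00e-05) and Trmt10c from 7.81 ± 0.960 to 12.2 ± 0.542 (0.64, adjusted p = 0.00497). From RS to ES they moved the opposite way again, to 4.81 ± 0.741 and 4.14 ± 0.418 CPM (3.59, adjusted p = 1.10e-05, and -1.55, adjusted p = 3.75e-05). Tfam, which packages mitochondrial DNA, acts in starting its transcription and has a testis isoform in the mouse, was at 18.7, 22.5 and 16.1 CPM in PAC, 120, 125 and 130 in RS and 360, 191 and 150 in ES (RS against PAC 2.71, adjusted p = 1.62e-05). Isoforms of Tfam were not separated in these counts.

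**Figure D4:**
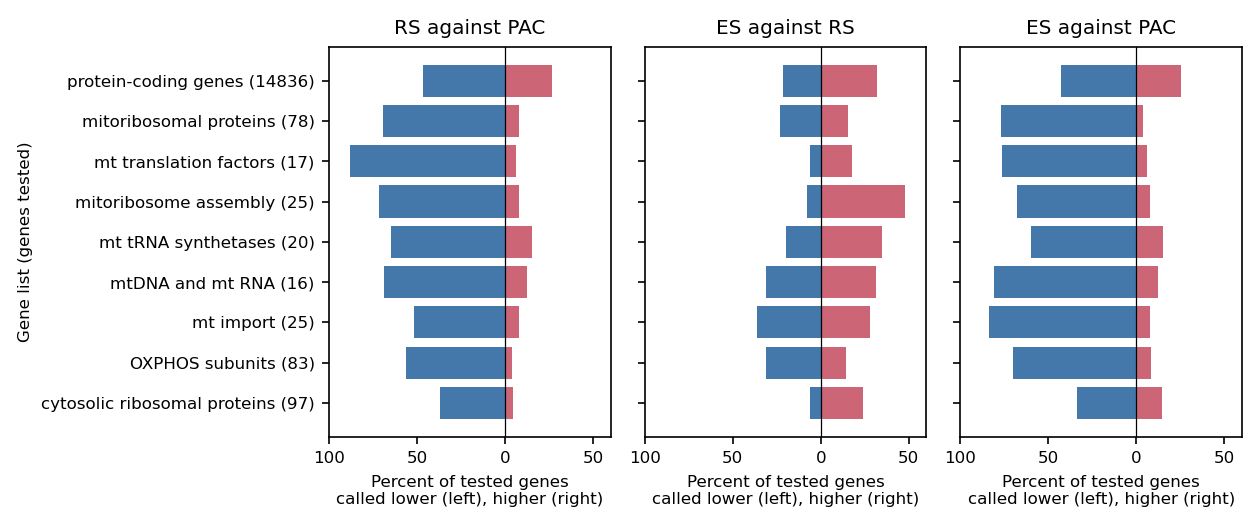
Bars give the percent of tested genes called lower (to the left) and higher (to the right) in each comparison, for all protein-coding genes and 8 lists, with the number tested in brackets. Translation factors have the longest bar to the left in RS against PAC, 15 of 17, and assembly genes the longest to the right in ES against RS, 12 of 25.

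Beside the 78 members, 97 of 101 cytosolic ribosomal protein genes were tested, and 36 (37.1%) fell and 4 rose from PAC to RS, with a median of -0.296. From RS to ES 6 fell and 23 rose (median 0.119), and for ES against PAC 33 were lower and 14 higher (median -0.257). Of 83 tested genes for subunits of oxidative phosphorylation, 47 (56.6%) fell and 3 rose from PAC to RS (median -0.518), 26 fell and 12 rose from RS to ES (median -0.317), and 58 were lower and 7 higher in ES than in PAC (median -0.888). Of 25 mitochondrial import genes, 13 (52.0%) fell and 2 rose, then 9 fell and 7 rose, and 21 were lower and 2 higher in ES than in PAC (median -0.797). Over protein-coding genes tested 46.9% fell and 26.3% rose from PAC to RS (median -0.464), and over all features 34.2% and 38.2%. From RS to ES 21.7% and 31.8% of protein-coding genes did so, and 22.1% and 24.5% of all features. For ES against PAC 42.6% and 25.2% of protein-coding genes were lower and higher, and 33.7% and 30.6% of all features. The cytosolic share of 37.1% was thus below that of protein-coding genes. Whether these sets differ from the mitoribosomal genes or the background was not tested.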

How the data were processed

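RNA of 9 libraries, 3 each of PAC, RS and ES, was analysed from the authors' 2 deposited tables. The deposited estimated counts carry no normalisation, and since 18.85% of them are not whole they were rounded. The authors' FPKM table covers the same features, and its lengths and totals are not stated. HISAT2, StringTie and GRCm38.p6 are named in the submitters' processing notes, without versions. Symbols and positions came from RefSeq's gene table for GRCm38.p6, which matched 21726 of 21877 NCBI gene rows.

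The filterByExpr filter (edgeR 4.0.16, R 4.3.3; minimum count 10) passed 26030 features and dropped 24463. One quasi-likelihood fit (robust, TMM factors from 0.758 to 1.099, common biological coefficient of variation 0.24) covered all libraries; contrasts were two-sided, with Benjamini-Hochberg adjustment across every tested feature and calls at an adjusted p below 0.05. FPKM were tested with limma 3.58.1 on log2(FPKM + 0.1), a scale that understates changes of low genes. DESeq2 1.42.0, other scalings, filters, a replicate block and leaving out each library were alternatives; Python 3.11.15, pandas 2.3.3 and matplotlib 3.10.9 made summaries and plots, and the fit was tested on simulated data. No 2 libraries were identical, and floors of 3 counts cover counting error only.

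Genes named were the 5 called members with the largest and the 5 with the smallest change in each comparison, the 3 highest and 3 lowest by FPKM, those called highest in RS, Mrps18a, Mrps18b, Mrps18c, Mrps36, Mrpl12, Mrpl58, Mrps30 and Mrps12 by role, and in each other list the 2 with the largest and 2 with the smallest change of RS against PAC; a few more, said so in the text, were named after their values were seen. The members and lists were chosen with earlier results of these data known. Mtrfr, listed among translation factors, had no match.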

Additional observations from a re-analysis of the deposited data

How the results depend on the processing

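The direction of the members' median held under each alternative for RS against PAC and ES against PAC, and 45 of 60 and 48 of 63 calls held under all of them; for ES against RS 18 of 30 did. For RS against PAC, TMM factors from protein-coding genes called 10 members higher and 41 lower, with a median of -0.494, and upper-quartile factors gave a median of -0.579. For ES against RS, 5 members were higher with library totals and with each FPKM fit (pseudocount 0.1, pseudocount 1, and 0.1 with no filter), and 29, 32, 32 and 30 lower, with medians of -0.371, -0.347, -0.321 and -0.347; over all features the 3 FPKM fits called 4114, 4364 and 3975 higher and 8674, 8934 and 8393 lower. With DESeq2's size factors that median was 0.101 and with DESeq2's test 0.0993. For ES against PAC each FPKM fit called 1 member higher, and the median was -0.681 with upper-quartile factors, -1.27 with library totals, -0.735 with protein-coding TMM factors, -1.26 with FPKM at a pseudocount of 0.1 with or without a filter, and -0.815 in a fit of those 2 cell types alone. Mrps28 for RS against PAC was -0.0792, -0.0775 and -0.0792 in the 3 FPKM fits, and Mrpl22 for ES against PAC -0.321, -0.295 and -0.321. The cause was not tested.

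Leaving out 1 library at a time gave 5 to 7 members higher and 50 to 56 lower for RS against PAC (median -0.988 to -0.778), 7 to 14 and 13 to 21 for ES against RS (median -0.11 to -0.0248; 7 without RS 1), and 3 and 54 to 62 for ES against PAC (median -1.09 to -0.904). Over all features the ranges were 9021 to 10374 higher and 7947 to 9396 lower, 4976 to 6625 and 4647 to 6173, and 7624 to 7962 and 8238 to 8904. With an arm of 2 libraries, and in all fits, the spread was pooled over cell types. The depth of the libraries limits what can be said of members near 1 CPM, such as Mrpl58 and Mrpl50.

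With the replicate number as a block, 6 members were higher and 54 lower in RS than in PAC (median -0.877), 13 and 20 in ES against RS (-0.0506), and 3 and 62 in ES against PAC (-0.98). Correlations of deviations between libraries with the same number ran from -0.0397 to 0.273. The largest were 0.273 for PAC 3 and ES 3 and 0.185 for PAC 1 and ES 1, while PAC 2 and ES 2 gave -0.0245. Between libraries with different numbers they ran from -0.254 (PAC 3 and ES 1) to 0.0941 (RS 2 and ES 1). Since the same-number values were not all above 0.1, the numbers were not taken as pairs in the main fit. Whether the numbers link libraries was not tested.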
